A study of Mus musculus with 2 samples.

Results

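The Kruppel-like factor genes Klf2, Klf3, Klf4, Klf6, Klf7, Klf9, Klf10, Klf11, Klf13 and Klf16 were examined in RNA bound to the chromatin of resting mouse macrophages. They were chosen by symbol in the GENCODE M21 annotation and are 10 of its 55536 genes, all of which were found in the deposited gene tables. The cells were C57BL/6J bone marrow-derived macrophages, harvested at 0 minutes of a lipid A course (100 ng/ml). Lipid A is the endotoxin moiety sensed by Toll-like receptor 4. The labels name no genetic alteration and record neither sex nor age. Total RNA of the chromatin fraction was sequenced after removal of ribosomal RNA in 2 biological replicates of this 1 group, prepared from 250 ng of RNA (replicate 1) and 500 ng (replicate 2). Both replicates carry the same donor entry, so whether they came from separate animals is not known and their spread may be technical. With 1 group there was no condition to compare, and no p-value is given.

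Kruppel-like factors bind GC-rich and CACCC-type DNA elements through zinc fingers near the carboxyl end and differ in the amino-terminal regions that recruit partners. Klf2, Klf4, Klf6 and Klf7 are known mainly as activators. Klf3 is a repressor that recruits CtBP proteins, and Klf9, Klf10, Klf11, Klf13 and Klf16 carry a short helix that binds the Sin3 co-repressor. In myeloid cells Klf2 restrains inflammatory activation, Klf4 acts in monocyte differentiation and alternative activation, and Klf6 promotes inflammatory gene expression. The chromatin fraction is rich in nascent and incompletely spliced RNA, so a level here is no measure of cytoplasmic mRNA.

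Much of the signal of this family, and the largest difference in Klf10 between the deposited tables, fell on annotated transcripts that contain intron sequence. A stretch of each is shown so that the sequence behind the values can be seen. In the first 3 stretches capitals mark the exon of the main coding transcript, the one with the longest coding sequence. Klf6-202 begins 90 bases before exon 2 of Klf6-201 (chr13:5864678-5864797, plus strand). Klf3-204 runs from exon 2 into intron 2 (chr5:64816801-64816920, plus strand), and Klf3-203 from exon 4 into intron 4 (chr5:64823000-64823119, plus strand). The Klf13 stretch is the first 240 bases of Klf13-203, which lies wholly in intron 1 and holds no exon of Klf13-201 (chr7:63936093-63936332, minus strand). The Klf10 stretch is the middle exon of Klf10-204, inside intron 1 of Klf10-201 (chr15:38300267-38300417, minus strand), and its capitals mark a run of 33 A. All were read from the GENCODE M21 transcripts on mm10 and are written 5′ to 3′.
Klf6 intron 1 to exon 2: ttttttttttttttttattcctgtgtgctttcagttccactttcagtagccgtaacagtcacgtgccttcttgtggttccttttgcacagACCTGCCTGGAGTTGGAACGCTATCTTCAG
Klf3 exon 2 to intron 2: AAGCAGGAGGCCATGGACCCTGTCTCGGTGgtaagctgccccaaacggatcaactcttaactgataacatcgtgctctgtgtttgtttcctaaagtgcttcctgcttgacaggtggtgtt
Klf3 exon 4 to intron 4: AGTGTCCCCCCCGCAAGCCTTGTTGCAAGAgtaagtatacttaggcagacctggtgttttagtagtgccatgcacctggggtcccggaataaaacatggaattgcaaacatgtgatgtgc
Klf13 intron 1: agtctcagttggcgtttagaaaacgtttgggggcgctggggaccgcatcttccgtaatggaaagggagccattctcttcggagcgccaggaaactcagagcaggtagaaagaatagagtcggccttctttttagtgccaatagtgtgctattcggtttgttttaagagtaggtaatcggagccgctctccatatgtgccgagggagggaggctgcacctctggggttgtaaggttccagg
Klf10 intron 1: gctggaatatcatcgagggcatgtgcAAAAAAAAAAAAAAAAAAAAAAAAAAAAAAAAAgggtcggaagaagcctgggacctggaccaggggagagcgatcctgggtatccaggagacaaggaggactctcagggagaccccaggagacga

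The intron ends in AG before Klf6 exon 2, and both Klf3 introns begin with GT, the usual letters of splice sites.

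Klf6, Klf13 and Klf3 had the highest levels of the family. Levels are given in expected counts, in which reads that fit several transcripts are shared out, and in TPM, length-normalised abundances scaled to a common sum, which allow for length and so permit genes to be compared. The 10 genes summed to 134.67 TPM in replicate 1 and 134.71 TPM in replicate 2, and the 3 highest genes made up 85.4% and 86.6% of these sums. The threshold for detection was 1 TPM in each of the libraries. By this rule 8 of 10 members were detected, and the background was 46.7% of 22015 nuclear protein-coding genes. The members were listed with earlier results of these data known, and 0 of the 7 other Klf genes passed. This count and the median below therefore describe the list and not the whole Klf family. Klf9 and Klf4 were the members below the threshold. On TPM rescaled to nuclear protein-coding genes alone, all 10 members reached it, with Klf4 at 1.15 and 1.06. That rescaling raises every gene of a library by the same factor, so the threshold is looser there. The background of 46.7% does not apply to it. The median member had 3.94 TPM, beside a median of 0.72 TPM over all protein-coding genes and 11.06 TPM over the detected ones. In bulk RNA, fewer expressing cells and less RNA per cell cannot be told apart.

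**Figure D1:**
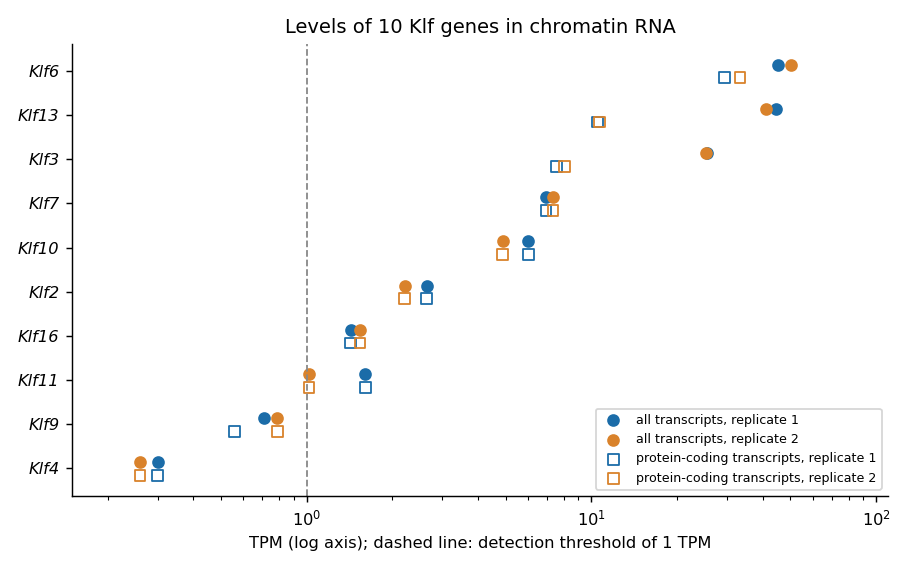
Level of each Kruppel-like factor gene in TPM (logarithmic axis), with a filled point for each replicate and open squares for its protein-coding transcripts alone. Klf6, Klf13 and Klf3 lie above 25 TPM in both replicates over all transcripts, and Klf9 and Klf4 lie below 1 TPM.

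Among the activators, Klf6 (ENSMUSG00000000078.7, chr13:5861482-5870394, plus strand) had the highest level in both libraries. It had 1305 expected counts and 45.06 TPM in replicate 1 and 2202 counts and 50.33 TPM in replicate 2, a mean of 47.7 ± 3.73 TPM (SD, n = 2). This level ranked 1260 among protein-coding genes, at percentile 94.3. Klf7 (ENSMUSG00000025959.13, chr1:64029447-64122282, minus strand), best known from neuronal development, had 323 and 479 counts and 6.92 and 7.32 TPM, at percentile 70.3. Klf2 (ENSMUSG00000055148.7, chr8:72319033-72321656, plus strand), the restrainer of myeloid activation, had 44 and 55 counts and 2.64 and 2.21 TPM, at percentile 58.3. Klf6 was above both of the other detected activators in each library. Among detected protein-coding genes alone, Klf6, Klf7 and Klf2 lay at percentiles 87.7, 36.5 and 10.9.

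Klf4 (ENSMUSG00000003032.8, chr4:55527143-55532466, minus strand) had the lowest level of the members. It had 3 expected counts in replicate 1 and 8 in replicate 2, with exact 95% Poisson intervals of 0.619 to 8.77 and 3.45 to 15.8 counts, and its level was 0.30 and 0.26 TPM. A count of 0 allows up to 3 counts, which is 0.274 RPM (the count scaled to library size) in replicate 1 and 0.212 RPM in replicate 2, so Klf4 in replicate 1 was at this limit. Its counts were divided differently between libraries, with 1.40 on the full-length Klf4-201 and 1.60 on Klf4-203 in replicate 1, and 7.07 and 0.93 in replicate 2. The effective length used for its TPM accordingly differed, at 971 and 1972 bases.

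Klf3 (ENSMUSG00000029178.14, chr5:64803388-64832901, plus strand), the CtBP-recruiting repressor, followed Klf6 and Klf13. It had 933.46 and 1419.55 expected counts and 25.40 and 25.36 TPM, a mean of 25.4 ± 0.0283 TPM (SD, n = 2), at percentile 88.3. Its replicates were the closest of the 3 highest genes.

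The Sin3-binding members ranged from near the top of the family to below detection. Klf13 (ENSMUSG00000052040.10, chr7:63886351-63938915, minus strand), described in T lymphocytes as an activator of the chemokine gene Ccl5, had 691 and 1061 counts and 44.59 and 40.98 TPM, a mean of 42.8 ± 2.55 TPM (SD, n = 2). Klf10 (ENSMUSG00000037465.10, chr15:38291463-38300706, minus strand), an early target of TGF-beta, had 144 and 206 counts and 6.01 and 4.90 TPM. Klf13 was the only one of this subgroup with a level like that of Klf6.

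The remaining Sin3-binding genes had few counts. Klf16 (ENSMUSG00000035397.8, chr10:80567124-80577321, minus strand) had 36 and 58 counts and 1.43 and 1.54 TPM. Klf11 (ENSMUSG00000020653.12, chr12:24651274-24662789, plus strand), a close relative of Klf10, had 64 and 61 counts and 1.61 and 1.02 TPM. Klf9 (ENSMUSG00000033863.2, chr19:23141226-23168134, plus strand), a glucocorticoid-induced member, had 26 and 52 counts and 0.71 and 0.79 TPM. These 3 genes lay at percentiles 54.4, 53.6 and 50.2 of protein-coding genes, a distribution in which most genes were not detected. Among detected protein-coding genes Klf16 lay at percentile 3.03 and Klf11 at 1.61, near the bottom.

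In descending order of the mean, the members ran Klf6, Klf13, Klf3, Klf7, Klf10, Klf2, Klf16, Klf11, Klf9 and Klf4. Only the neighbours Klf16 and Klf11 had ranges over the replicates that overlapped, and Klf11 was the higher of them in replicate 1. Klf6 exceeded Klf13 by 1.01-fold in replicate 1 and 1.23-fold in replicate 2, so their order was not resolved in the first library. On the posterior mean TPM that the authors also deposited, Klf13 was above Klf6 in replicate 1 (40.79 against 40.68 TPM), and the ranges of Klf6 and Klf13, Klf7 and Klf10, and Klf2 and Klf11 overlapped.

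In the first transcript table, retained-intron transcripts took most of the TPM of Klf13 and Klf3. On transcripts annotated as retained intron, Klf13 had 76.4% of its TPM in replicate 1 and 73.9% in replicate 2, a mean of 75.2 ± 1.80% (SD, n = 2). Klf3 had 70.4% and 68.2%, a mean of 69.3 ± 1.55%. Klf6 had 34.7% and 33.9%, a mean of 34.3 ± 0.575%. Thus Klf13 and Klf3, 2 of 3 members with such a transcript, had at least 50% of their TPM there in both libraries, and the background was 43.3% of 5042 genes with a retained-intron transcript and at least 100 counts. The median gene of that background had 49.0%, with Klf13 at percentile 89.5, Klf3 at 82.6 and Klf6 at 27.7. In the second transcript table the share of TPM was 41.3% for Klf3, under 50%, and 57.2% for Klf13, so only Klf13 kept its majority of TPM there. Klf3-207, a nonsense-mediated decay model of 298 bases, took 26.3% and 24.4% of the Klf3 TPM in that table, on 22.5 and 30.9 counts. By counts in the second table the order was the reverse, with a retained-intron share of 61.7% for Klf3 and 32.1% for Klf13.

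**Figure D2:**
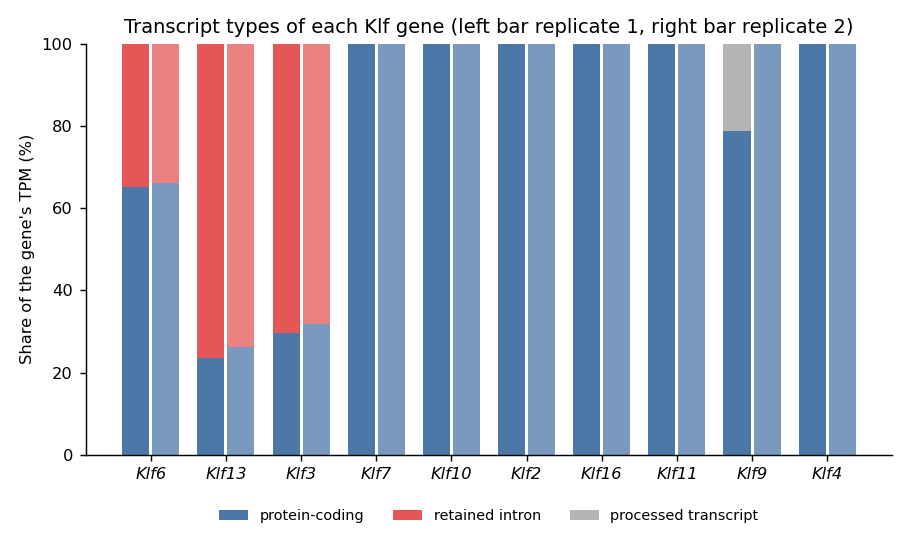
Share of each gene's TPM by annotated transcript type in the first transcript table, as stacked bars from 0 to 100% for each replicate. Klf13 and Klf3 have most of their TPM on retained-intron transcripts in both replicates, Klf6 has 34.3% there on average, and the other genes have none.

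In the first transcript table the share of counts on retained-intron transcripts was lower than the share of TPM, which divides counts by length. Klf6-202 has 799 bases against 4225 in Klf6-201, and it held 6.94% and 6.67% of the counts of Klf6. For Klf13 the share of counts was 35.5% and 30.5%, and for Klf3 it was 62.4% and 59.0%. By counts Klf3 alone was above 50%. By counts as well as by TPM, Klf6 had the smallest retained-intron share of these 3 genes.

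The amount of intron in each model also differed, as the sequences above show. In Klf6-202 only 98 of 799 bases (12.3%) are intron relative to Klf6-201, so most of its length is shared with coding exons. Klf3-204 is 96.5% intron and Klf3-203 is 81.8% intron. Klf13-203 is 934 bases of a single exon (chr7:63935399-63936332) that is 100% intron, starting 1634 bases past exon 1 in a first intron of 46169 bases. Its TPM can therefore come from no exon of Klf13-201, although 72 of its bases are also the first exon of the short coding model Klf13-204.

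The density of expected counts, per kilobase of each model, was compared with that of the main coding transcript. Klf13-203 had 245 and 324 counts, or 262 and 347 counts per kilobase, against 67.7 and 113 counts per kilobase on Klf13-201, a ratio of 3.88 and 3.08. Klf3-204 had 232 and 344.28 counts at 1.27 and 1.13 times the density of Klf3-201, and Klf3-203 had 350.15 and 493.62 counts at 1.31 and 1.11 times. Klf6-202 had 0.394 and 0.378 times the density of Klf6-201, which held 1214.44 and 2055.14 counts. Most of Klf6-202 is shared with Klf6-201, so its ratio depends on how shared reads were divided and does not measure coverage of that stretch. By expected counts per kilobase, Klf13-203 was thus denser than its coding model in both libraries, and the Klf3 models were close to theirs.

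**Figure D3:**
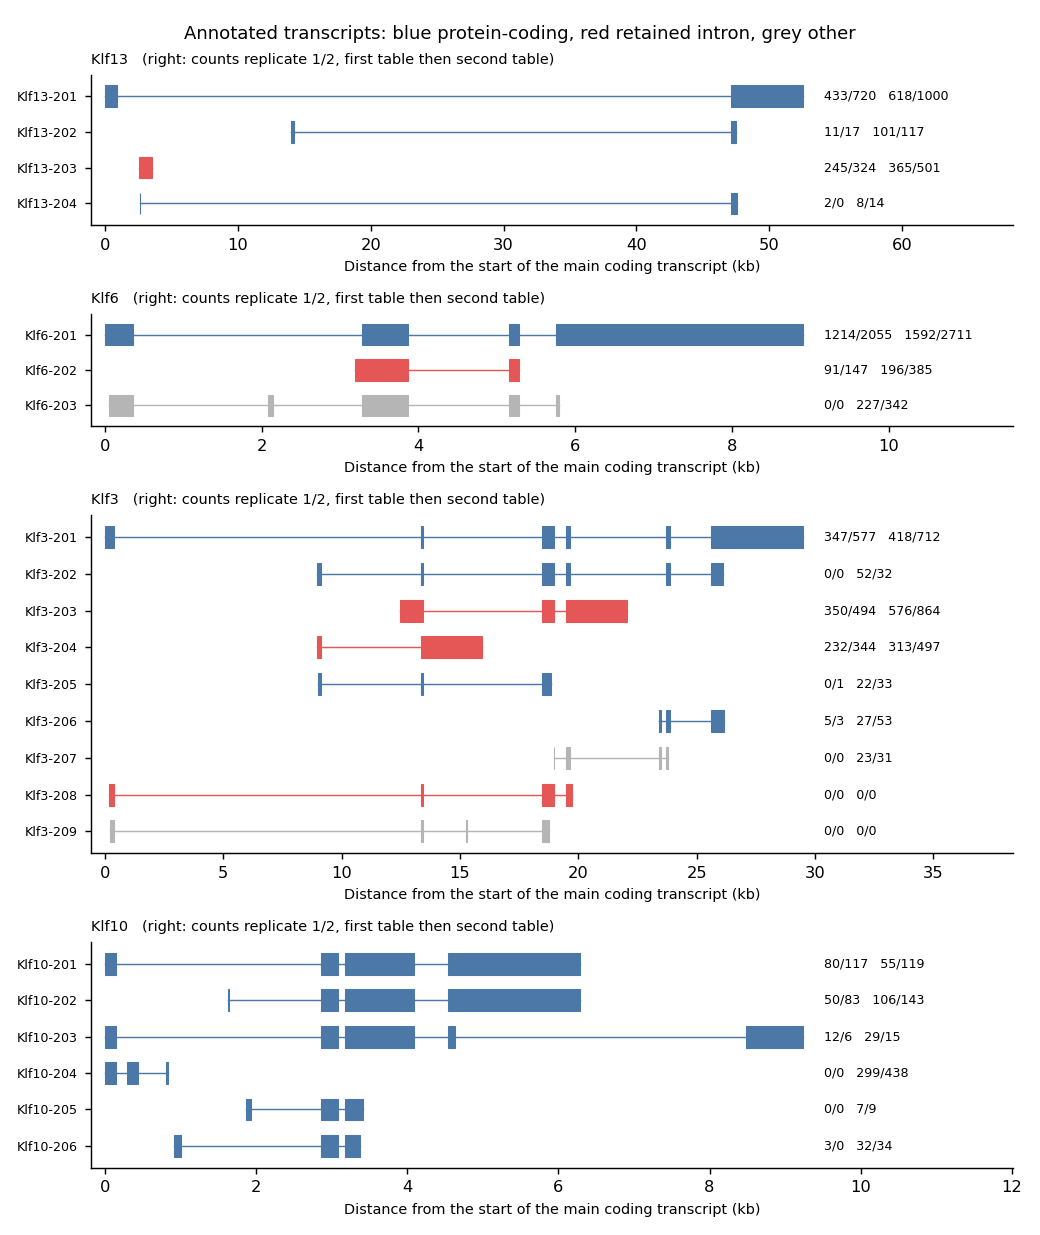
Exon maps of the annotated transcripts of Klf13, Klf6, Klf3 and Klf10 drawn to scale by distance from the gene's start, with expected counts of replicates 1 and 2 in the first and then the second transcript table. Klf13-203 sits inside the long first intron with 245 and 324 counts, and Klf10-204 has 0 counts in the first table and 299.4 and 438.0 in the second.

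Counting protein-coding transcripts alone kept the order of the means but spread the top of it. Klf6 then had 29.42 and 33.27 TPM, Klf13 had 10.51 and 10.70 TPM, and Klf3 had 7.52 and 8.06 TPM. Klf6 exceeded Klf13 by 2.80-fold and 3.11-fold on this measure, beside 1.01-fold and 1.23-fold over all transcripts. The near-equal levels of Klf6 and Klf13 over all transcripts therefore rest on Klf13-203, at 34.08 and 30.27 TPM.

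The other members had all of their TPM on protein-coding transcripts in the first transcript table, except Klf9. In Klf9 a processed transcript had 1.37 counts and 21.1% of the TPM in replicate 1 and 0 counts in replicate 2. Klf7 was split over 3 coding models, and Klf7-202, with introns of 41565 and 36269 bases, had 281.13 and 431.34 counts. In Klf10 the counts fell mainly on Klf10-201 (80.1 and 116.64) and Klf10-202 (49.54 and 83.06).

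Other annotated entries lie inside or across these genes. There were 8 of them, over 4 members, with 5 on the opposite strand, and the sources used here do not state whether counting used strand. C230096K16Rik, a model of the annotation's TEC class on the same strand inside intron 1 of Klf3 (chr5:64804014-64805735), had 236 and 334 counts and 15.4 and 14.6 TPM. Its counts equalled 25.3% and 23.5% of those of Klf3 and are not part of them. E030018B13Rik, on the opposite strand inside intron 1 of Klf13 (chr7:63916857-63920539), had 101 and 158 counts and 12.6 and 13.2 TPM. Reads of C230096K16Rik and of unspliced Klf3 RNA cannot be told apart, and for E030018B13Rik and Klf13 they can be only if strand was kept. Gm27252, also opposite in the Klf13 intron, had 19 and 17 counts, and Gm20033, which crosses the start of Klf3, had 16.54 and 28.45 counts.

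Between replicates, a difference beyond counting error was not resolved for most members. The log2 ratio of replicate 2 over replicate 1 was taken on expected counts scaled by TMM, a normalisation of library composition, with an exact 95% interval that covers counting error only. The interval excluded a ratio of 1 for 2 of 9 members whose counts averaged 10 or more, and the background was 25.6% of 11430 protein-coding genes. Klf6 was higher in replicate 2, with a log2 ratio of 0.25 (0.15 to 0.35). Klf11 was lower in replicate 2, with a log2 ratio of -0.57 (-1.10 to -0.04). An interval that excluded 1 with the lower level in replicate 2 was found for 11.6% of the background genes. The call on Klf11 ended with scaling by total counts, at -0.44 (-0.97 to 0.09), and in the second transcript table, at -0.14 (-0.36 to 0.09). The share of members called was close to that of all genes.

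For the other members the interval included 0. The log2 ratio was 0.12 (-0.02 to 0.26) for Klf13, 0.10 (-0.02 to 0.22) for Klf3 and 0.07 (-0.14 to 0.27) for Klf7. Klf10 was the most even, at 0.01 (-0.30 to 0.33). Klf2 had -0.18 (-0.78 to 0.43), Klf16 0.18 (-0.44 to 0.83) and Klf9 0.49 (-0.21 to 1.24). The wide intervals of Klf2, Klf16 and Klf9 reflect their low counts, and that of Klf4, which had 0.83 (-1.15 to 3.46), spans both directions. The median over the 10 members was 0.11, beside 0.00 over 15193 genes.

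**Figure D4:**
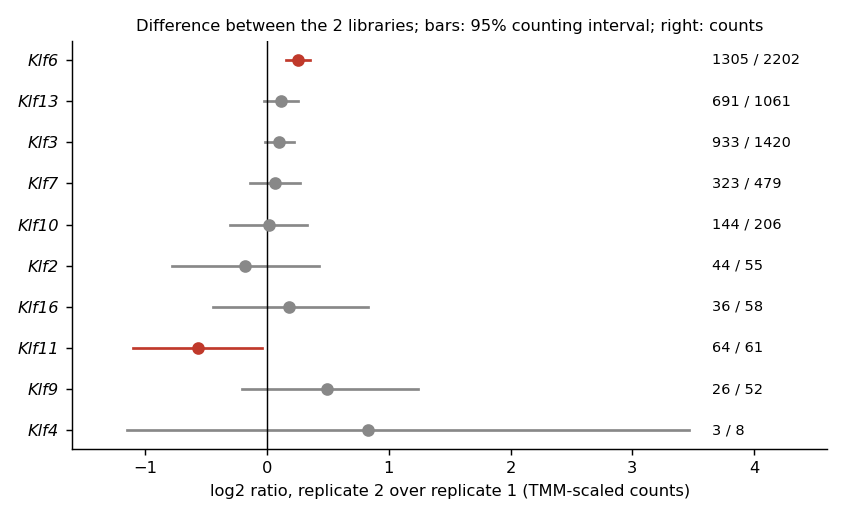
Log2 ratio of replicate 2 over replicate 1 for each member on TMM-scaled expected counts, with exact 95% counting intervals as bars and a line at 0. Only the intervals of Klf6 (0.25) and Klf11 (-0.57), drawn in red, lie to one side of 0.

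Klf10 and Klf11 had far more counts in the second transcript table, which the notes deposited with the files describe as made from the reads and a transcript index, while the gene table came from an alignment. The second table summed to 1.75 and 1.74 times the counts of the gene table, and the median gene had 1.74 and 1.75 times as many. Klf11 had 284.6 and 361.5 counts there against 64 and 61, or 4.45-fold and 5.93-fold. Klf10 had 529.4 and 759.2 counts against 144 and 206. At least 3-fold more counts in both libraries were found for these 2 of 9 members with at least 20 counts, and the background was 7.98% of 10288 genes, or 28.1% at 2-fold, where the same 2 members passed. Klf10 was above 94.4% and Klf11 above 97.5% of the background genes.

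**Figure D5:**
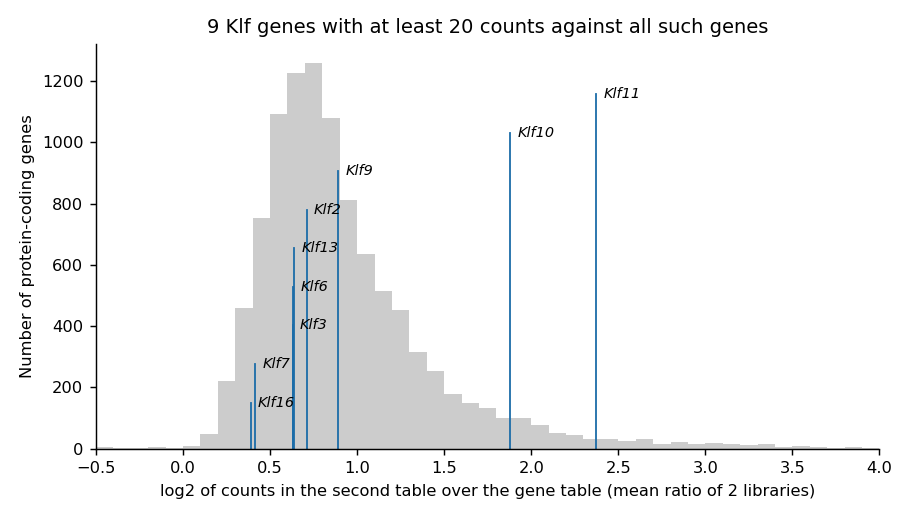
Histogram over 10288 protein-coding genes of the count in the second transcript table over that in the gene table, mean of both replicates, with 9 members marked. Klf10 and Klf11 lie in the upper tail, and the other 7 members lie within the bulk of the distribution.

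The other members with enough counts had ratios from 1.22 to 2.08. Klf16 had 1.22 and 1.40, Klf7 1.35 and 1.32, and Klf9 2.08 and 1.63. Klf4, below the count minimum, had 39.5 and 74.5 counts in the second table against 3 and 8, so its near absence holds for the gene table alone. Its level in the second table was still low, at 0.586 and 1.28 TPM.

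The excess of Klf10 and that of Klf11 fell on different kinds of transcript. In Klf11 it was on the full-length Klf11-201, with 276.4 and 355.8 counts against 64 and 61. In Klf10 it was on Klf10-204, a model of 326 bases annotated as protein-coding (chr15:38299874-38300706), with 299.4 and 438.0 counts against 0 and 0. That model alone had 83.96 and 129.08 TPM and made Klf10 the highest member of the second table, at 92.0 and 139 TPM. Without transcripts under 500 bases Klf10 had 8.002 and 10.2 TPM there, a mean of 9.11 ± 1.57 TPM (SD, n = 2), and came after Klf6, Klf13 and Klf3. The high level of Klf10 in that table thus rests on 1 short model.

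Klf10-204 contains the run of 33 A shown in capitals above. Runs of at least 25 A occurred in 424 of 141767 annotated transcripts (0.299%). Among transcripts with such a run that were at 0 in both libraries of the first table, 34 of 155 (21.9%) had at least 100 counts in both libraries of the second, beside 1792 of 74945 (2.39%) of those without one. This comparison was chosen after the values of Klf10-204 were seen, is a description, and the part of the run in the Klf10 counts was not tested.

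In the second table the same 3 genes as in the gene table stood next to Klf10. Klf6 had 40.7 and 73.8 TPM, Klf13 36.7 and 51.9 TPM, and Klf3 28.2 and 43.8 TPM. Each had more TPM in replicate 2, as did every other member in that table, so that the ranges of neighbours overlapped. On TMM-scaled counts of that table the log2 ratio of replicate 2 over replicate 1 was 0.29 for Klf6, 0.10 for Klf13 and 0.15 for Klf3. Within each library the order was Klf6, Klf13, Klf3. Klf6 exceeded Klf13 by 1.11-fold and 1.42-fold, in replicates 1 and 2. The retained-intron share of Klf6 there was 35.98%, below those of Klf13 and Klf3, as in the first table. Klf6-203, a nonsense-mediated decay model at 0 in the first table, held 226.6 and 341.8 counts. It was 1 of 6 member transcripts, of 36, at 0 in both libraries of the first table and above 3 counts in both of the second. The background was 9.39% of all annotated transcripts and 7.9% of those of detected protein-coding genes.

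The rest of the Klf family was near or at 0 in the gene table. None of 7 other Klf genes was detected there, and Klf5, Klf12, Klf14 and Klf17 had 0 counts in both gene tables. The highest, Klf8, a CtBP-binding relative of Klf3, had 16 and 32 counts and 0.34 and 0.48 TPM. Klf15 had 2 and 2 counts, and Klf1, the erythroid founder of the family, had 2 and 0. Klf12, also CtBP-binding, had 141.9 and 205.8 counts in the second table, all on the processed transcript Klf12-203. Its level there was 9.42 and 14.3 TPM, above the detection threshold and above Klf7, and it was the 1 other Klf gene to reach the threshold in that table.

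Of the related Sp genes, which bind similar GC-rich elements, 4 of 9 were detected, beside 46.7% of nuclear protein-coding genes. Sp3, at 52.78 and 52.40 TPM, a mean of 52.6 ± 0.269 TPM (SD, n = 2), was above Klf6 in both libraries. Sp1, the ubiquitous activator, had 11.4 ± 0.191 TPM and Sp4 had 3.92 ± 0.0919 TPM. Sp1 thus lay between Klf3 and Klf7.

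The listed partners of these factors were all detected, by the rule that 46.7% of nuclear protein-coding genes passed. The lists were chosen with earlier results of these data known, so these counts describe the lists alone. Of the co-repressors and co-activators 15 of 15 were, with a median of 22.8 TPM. Among the highest were the co-repressor Ncor1 (159 ± 6.28 TPM), the acetyltransferase Ep300 (84.9 ± 4.83 TPM) and the Sin3 gene Sin3b (49.8 ± 0.559 TPM). The lowest were Rcor1 (10.3 ± 0.361 TPM) and Hdac2 (6.84 ± 0.679 TPM). The CtBP genes Ctbp1 and Ctbp2, partners of Klf3, and Sin3a were detected in both libraries too.

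The listed regulators of Klf transcription were also all detected, 17 of 17 beside 46.7% of nuclear protein-coding genes, with a median of 19.9 TPM. The highest were Irf8 (127 ± 22.5 TPM), the myeloid factor upstream of Klf4, and the MEF2 genes Mef2c (79.9 ± 2.33 TPM), Mef2a (78.4 ± 2.72 TPM) and Mef2d (40.0 ± 1.01 TPM), which act in the Erk5 route to Klf2 and Klf4. The lowest were Srf (4.45 ± 2.41 TPM) and Foxo1 (1.57 ± 0.191 TPM). Srf had 52 and 131 counts, a log2 ratio of 0.83 (0.36 to 1.32). In chromatin RNA, high levels of Irf8 and the MEF2 genes stood beside low levels of Klf4 and Klf2, and a relation between them was not tested.

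The listed ubiquitin ligases known to act on Klf proteins were detected in 9 of 9 cases, beside 46.7% of nuclear protein-coding genes, with a median of 14.4 TPM. Wwp1, a ligase of Klf2 and Klf5, had 139 ± 5.55 TPM, Itch 47.2 ± 2.69 TPM, Fbxw7 20.95 ± 2.12 TPM and Btrc 18.3 ± 2.40 TPM. The lowest were Vhl (1.99 ± 0.240 TPM) and Fbxo32 (1.31 ± 0.361 TPM).

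The gene tables summed to 10970767 and 14207280 expected counts. Of the 10933708 and 14168886 counts on annotated genes, the members held 0.0326% and 0.0395%. All 8 macrophage markers examined were detected, with summed levels of 721 and 609 TPM. Of 29 markers of 7 other cell types 1 was detected in the gene table, the endothelial gene Kdr, 15 were at 0 in both libraries, and the summed level of a list ranged from 0 to 3.41 TPM. The markers that reached 1 TPM in both libraries of the second transcript table numbered 5, namely Kdr, Cd3d (8.34 and 10.8 TPM), Cd8a (2.43 and 3.24 TPM), Pecam1 (4.88 and 6.64 TPM) and Col1a1 (1.02 and 1.74 TPM). Klf1 is also one of the erythroid markers, and Spi1 stands among both the macrophage markers and the Klf regulators.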

How the data were processed

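Each library has a gene table and a first transcript table that the authors derived from transcriptome alignments (mm10, GENCODE M21), and a second transcript table derived from reads with an index, per the deposited notes. The software behind them, with any use of strand, was not given in the sources used here. Values used as deposited were expected counts, TPM, and a posterior mean TPM, treated as a score. Entries outside the annotation (0.338% and 0.270% of counts) were left out of library sizes.

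Expected counts were rounded for TMM factors (edgeR 4.0.16, R 4.3.3) after the filter on low counts. Log2 ratios added 0.5 counts, and intervals are exact (Clopper-Pearson, 95%). These intervals, and the limit for a count of 0, hold counting error alone, because reads are not independent molecules. DESeq2 1.42.0 size factors were an alternative. Retained-intron shares use the first transcript table. Python 3.11.15, numpy 2.4.6, pandas 2.3.3 and scipy 1.17.1 did the rest, and the interval step was tested on simulated data.

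Members and lists were chosen with earlier results of these data known. All members, the 3 highest related family genes, and the 4 highest and 2 lowest of each partner list were named, except 1 gene that is not reported here. Overlapping entries, other Klf genes, Ctbp1, Ctbp2 and Sin3a were named outside this rule.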

Additional observations from a re-analysis of the deposited data

Results flagged for a closer look

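Several entries at 0 in both libraries of the first transcript table or gene table had counts above the limit that a count of 0 allows in the second transcript table. This held for 6 of 36 member transcripts, beside 9.39% of all annotated transcripts and 7.9% of those of detected protein-coding genes. Klf10-204 had 299.4 counts in replicate 1 and 438 in replicate 2, and Klf10-205 had 7.05 and 9.068. Klf6-203 had 226.6 and 341.8. In Klf3 the second table gave Klf3-202 51.64 and 32.3 counts and Klf3-207 22.53 and 30.9. Klf11-203 had 5.827 and 4.563.

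It also held for 3 of the other Klf genes. Klf12 had 141.9 and 205.8 counts, Klf5 had 9.012 and 13.01, and Klf17 had 9 and 13.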

How the results depend on the processing

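With detection set at 5 TPM, 4 members remained above the threshold in both libraries, and at 0.5 TPM 9 did. The second transcript table gave 7, with Klf16 below 1 TPM in replicate 1, and each library alone gave 8. The number of members whose replicate ratio excluded 1 was 2 with TMM, DESeq2 size factors and the second table, and 3 with total counts. Outside the main settings no share over all genes is given, so these counts describe the members alone. Klf11 lost its call with total counts (-0.44) and in the second table (-0.14), where Klf3 gained one (0.23 and 0.15). Klf13 gained one with total counts (0.24), and Klf2 changed sign in the second table (0.12). The causes were not tested. No called log2 ratio was reversed. Of 70 mean levels under another setting 37 moved by more than 1 SD of the replicates. This total holds 10 levels for each library alone, which could not move, because each of 2 values lies within 1 SD of their mean. The 6 levels unmoved on protein-coding transcripts alone belong to genes with no other type of transcript. Rescaling TPM to nuclear protein-coding genes raised every member (Klf6 to 188.3, Klf9 to 2.96, Klf4 to 1.10) and put all 10 above 1 TPM. It multiplies every gene of a library by the same factor, so each level was bound to rise. The posterior mean gave Klf4 0.665 and Klf11 2.135 TPM. Restricting to protein-coding transcripts and dropping second-table transcripts under 500 bases, and the detection count on rescaled TPM, were chosen after seeing the data. Depth limits the values of Klf2, Klf16, Klf9 and Klf4 most, and with them the comparison of replicates.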
